A study of Homo sapiens with 9 samples.

Results

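Amino acids enter and leave cells through membrane carriers of the solute carrier (SLC) families, and 32 genes of these families were read in the transcriptomes of 3 human kidney cell lines. They were taken from the 28395 genes of the deposited count table by their NCBI gene identifiers, and all 32 had a row. HK2 is an immortalized line of normal proximal tubule, 786-O is a line from a primary clear cell renal cell carcinoma (ccRCC), and 786-M1A is a metastatic derivative of 786-O obtained from lung metastases after injection into mice. All were grown stably in Plasmax, a medium modelled on the nutrients of human serum, with no treatment, and 3 libraries per line were sequenced. Each line is a single model: differences between HK2 and 786-O are differences between lines of different origin, and 786-M1A stands for 1 derivative. The study plated replicate dishes of each line the day before extraction and describes the libraries as independent cultures. The p-values thus measure the spread between replicate dishes of a line.

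Carriers differ in what drives them. Exchangers such as SLC7A5 and SLC1A5 swap one amino acid for another, symporters such as SLC38A2 and SLC1A1 use the sodium gradient to concentrate their substrates, and facilitators of the SLC43 family let amino acids flow down their gradient. The light chains of the SLC7 family reach the surface only when bound to a heavy chain of the SLC3 family. In the kidney these carriers recover filtered amino acids in the proximal tubule, and in proliferating cells they supply leucine, which activates the growth kinase mTORC1, and glutamine.

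The libraries held 30212291 to 45362428 counts on genes, and 3 counts, the floor used here, were at most 0.0966 CPM, the count scaled to a common library total with edgeR's TMM factors. Of 11 proximal tubule markers, LRP2, SLC22A6 and SLC22A8 had 0 counts in every library, and the summed level of the list was 289.9 to 295 CPM for HK2, 364 to 381 CPM for 786-O and 287 to 314 CPM for 786-M1A. ANPEP, a peptidase of the brush border, gave 1.75, 112 and 19.8 mean CPM of these sums. The kidney transcription factor PAX8 was present in every library. With 167, 165 and 182 mean CPM in HK2, 786-O and 786-M1A, PAX8 made up most of these sums together with GGT1 (108, 80.6 and 88.35). HNF4A, SLC34A1, CUBN and AQP1 were low, at 0.024, 0.284, 0.742 and 0.622 mean CPM in HK2 and at most 1.06 in any line. CA9, a common ccRCC marker, stayed at or below 3 counts in every library. The ccRCC list summed to 183 to 193 CPM for HK2, 322 to 330 CPM for 786-O and 507 to 519 CPM for 786-M1A, from VEGFA and PAX8. Endothelial markers and the immune markers PTPRC and CD3E were at or below the floor. The third immune marker, CD68, a lysosomal protein abundant in macrophages, brought that list to 48.7 to 53.3 CPM for HK2, 26.3 to 27.4 CPM for 786-O and 34.1 to 37.2 CPM for 786-M1A, and was called in all 3 comparisons. The 4 fibroblast markers summed to 72.8 to 81.6 CPM for HK2, 280 to 348 CPM for 786-O and 20.4 to 23.96 CPM for 786-M1A, mostly from COL1A1, and the part of these markers in the results below was not tested. In such bulk libraries fewer cells of a type and less RNA per cell cannot be told apart.

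The 250 bases before the RefSeq start site of 3 members whose level differed strongly between the lines are shown here for the letters they hold, 5′ to 3′ on the gene's own strand in build GRCh38.p14. The SLC7A5 stretch is chr16:87869508-87869757 on the minus strand and the SLC38A5 stretch is chrX:48470261-48470510 on the minus strand, with the E-box CACGTG in capitals. The SLC1A1 stretch is chr9:4490218-4490467 on the plus strand, with each GCGTG of either strand in capitals.
SLC7A5: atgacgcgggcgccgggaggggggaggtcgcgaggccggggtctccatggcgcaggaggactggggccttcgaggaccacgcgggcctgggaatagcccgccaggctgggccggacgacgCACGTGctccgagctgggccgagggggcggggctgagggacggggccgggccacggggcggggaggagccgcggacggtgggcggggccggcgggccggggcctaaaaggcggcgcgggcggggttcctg
SLC38A5: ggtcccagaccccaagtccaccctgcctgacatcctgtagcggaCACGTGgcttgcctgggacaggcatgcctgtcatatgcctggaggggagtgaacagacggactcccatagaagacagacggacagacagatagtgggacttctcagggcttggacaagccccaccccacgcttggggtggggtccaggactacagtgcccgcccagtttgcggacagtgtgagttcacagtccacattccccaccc
SLC1A1: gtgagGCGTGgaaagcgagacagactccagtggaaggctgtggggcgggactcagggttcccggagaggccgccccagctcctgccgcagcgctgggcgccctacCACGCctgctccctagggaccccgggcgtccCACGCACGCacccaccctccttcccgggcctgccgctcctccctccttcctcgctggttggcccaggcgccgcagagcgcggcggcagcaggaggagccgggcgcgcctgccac

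RefSeq promoter windows, from 250 bases before to 50 after a start site, were given for 25 of the 32 members, 46 windows in all. CACGTG, the E-box that factors such as MYC and MAX recognise, was in a window of 8 of these 25 members (32%), against 8.77% of 27305 genes with a window. Counted by window, these were 8 of 46 windows of members (17.4%) and 7.26% of all 35116 windows. They belonged to SLC7A5, SLC38A5, SLC1A5, SLC7A7, SLC7A8, SLC43A1, SLC36A1 and SLC38A7, which include members that were higher and members that were lower in the cancer lines. ACGTG or GCGTG, the cores of hypoxia response elements, were in windows of 19 members (76.0%) and of 52.4% of all genes, or 28 of 46 windows of members (60.9%) and 48.4% of all windows. ACGTG is part of CACGTG, so these counts overlap. TGATGNAA, a composite element bound by ATF4 on amino acid shortage, was in windows of 5 members (20%; SLC1A3, SLC1A4, SLC1A5, SLC3A2 and SLC38A1) and of 4.46% of all genes, or 5 of 46 windows of members (10.9%) and 3.62% of all windows. Members had more windows each than other genes, which raises a share counted by gene. All motifs were searched on both strands and are descriptions of letters.

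Scaled by transcript length, the transporter mRNA of the cancer lines was led by the leucine exchanger SLC7A5 and its heavy chain SLC3A2. That of HK2 was led by the glutamine symporter SLC38A2. Per length, as CPM per kb of the MANE Select transcript, the 32 members summed to 442 ± 7.45 for HK2, 590 ± 12 for 786-O and 647 ± 8.34 for 786-M1A (SD, n = 3 libraries). SLC7A5 took 8.09% ± 0.316 of this sum for HK2, 29.7% ± 0.804 for 786-O and 33.2% ± 0.712 for 786-M1A, and moved from rank 6 to rank 1. SLC38A2 took 17.6% ± 0.461, 3.98% ± 0.247 and 4.14% ± 0.280, and moved from rank 1 to rank 7. SLC1A5, the glutamine exchanger ASCT2, ranked 2 in HK2 and 3 in both cancer lines, with 15.5% ± 0.587, 14.9% ± 0.367 and 11.9% ± 0.432 of the sum.

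**Figure D1:**
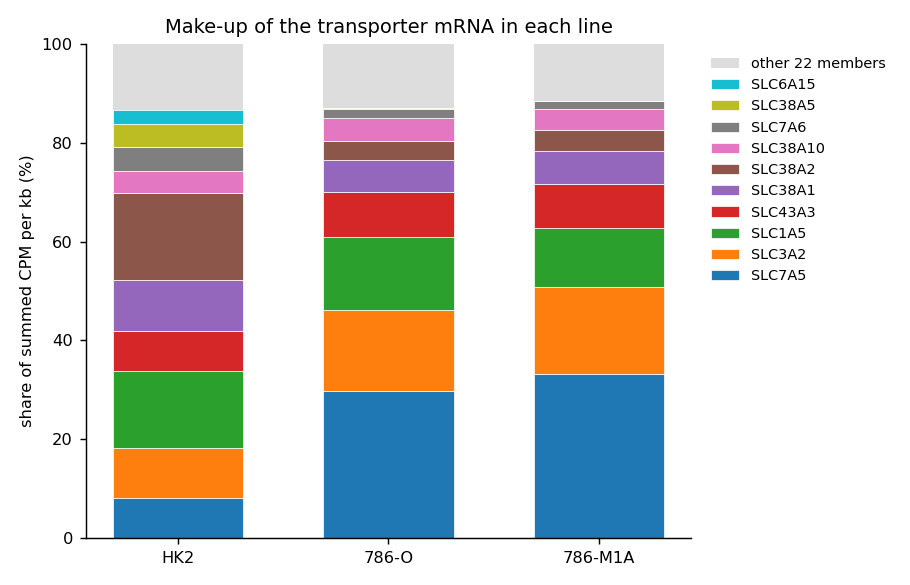
Stacked bars of the share (%) that each named member took of the summed CPM per kb of the 32 members in HK2, 786-O and 786-M1A, means of 3 libraries. SLC7A5 and SLC3A2 together made up the lower part of each bar, where SLC7A5 took 8.09% in HK2 and 33.2% in 786-M1A.

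Of the 32 members, 24 averaged 50 counts or more across the 9 libraries and were tested, and 8 did not and are given by their counts. Of the tested members, 20 averaged 50 counts or more in each line by itself. The other 4 (SLC6A9, SLC6A15, SLC7A2 and SLC38A5) passed through the lines in which they were high. They so had to differ from a line under 50 counts, and counts and medians over the tested members include them. SLC7A2 and SLC38A5 averaged over 50 counts in both HK2 and 786-O, so the filter did not set their difference between these lines. Between 786-O and HK2, edgeR's quasi-likelihood test called 22 of the 24 at an adjusted p under 0.05, 12 higher and 10 lower in 786-O. The background was high: 84.2% of the 12695 genes tested were called, 41.6% as higher and 42.6% as lower. With at least a 2-fold difference 11 members were called, 5 higher and 6 lower, against 22.3% of all genes, 9.18% higher and 13.1% lower. Between 786-M1A and HK2, 20 members were called, 11 higher and 9 lower, against 84.9% of all genes, 41.6% higher and 43.3% lower. At 2-fold there were 13 members, 6 higher and 7 lower, against 25.4% of all genes, 10.4% higher and 15.0% lower. Without the filter, where all 32 members entered, the 2-fold counts leaned to lower, as did those of all genes. They were 5 higher and 10 lower in 786-O against HK2, beside 9.89% and 15.6% of 21241 genes. In 786-M1A against HK2 they were 6 higher and 12 lower, beside 10.2% and 17.5%.

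The 2 cancer lines were closer to each other. Between 786-M1A and 786-O, 14 members were called, 8 higher and 6 lower in 786-M1A, against 56.0% of all genes, 27.9% higher and 28.0% lower. At 2-fold there were 5 members, 1 higher and 4 lower, against 6.59% of all genes, 2.03% higher and 4.55% lower. This count fell to 3 without 786-M1A replicate 1, since SLC1A3 and SLC43A1 lay at the 2-fold line. The median absolute log2 fold change of the tested members was 0.83 for 786-O and 1.35 for 786-M1A against HK2. That of all genes was 0.47 and 0.51. Setting SLC6A15, at 0 counts in both cancer lines, at its bound could not move these medians, since its value stayed far above them. SLC6A9, SLC7A2 and SLC38A5, which passed the filter through the lines in which they were high, are also among the values. All of them lay above 1.35 in size in 786-M1A against HK2. That median was thus set in part by the filter and is no test of the list. Between the cancer lines the median was 0.16 over the 23 members with counts there, and 0.17 over all genes.

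**Figure D2:**
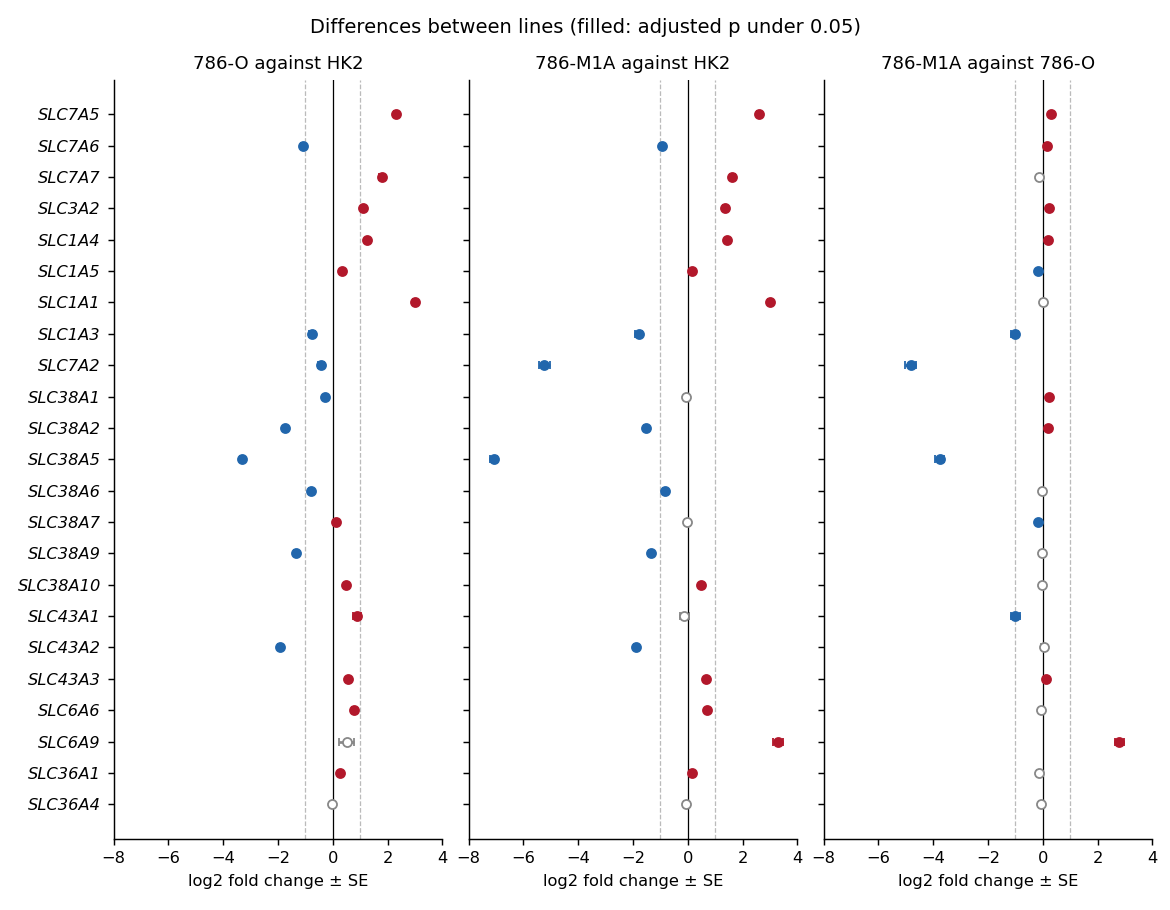
Log2 fold changes with their standard errors (x axis) of 23 tested members in the 3 comparisons, red for higher, blue for lower and open for an adjusted p of 0.05 or above, with dashed lines at 2-fold. SLC6A15 is left out because it had no counts in the cancer lines. Most points of the right panel lie near 0, and SLC7A2 at -4.83, SLC38A5 at -3.77 and SLC6A9 at 2.79 stand away from them. SLC7A2, SLC38A5 and SLC6A9 passed the filter through the lines in which they were high, so a difference between lines was built in.

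The light chain SLC7A5 (LAT1), which brings in leucine, isoleucine, valine and aromatic amino acids in exchange for others, was higher in both cancer lines. It lies on chromosome 16 (hg38, 87830023 to 87869507, minus strand). The HK2 libraries held 159.9, 157 and 172 CPM, those of 786-O 841, 781 and 772 CPM, and those of 786-M1A 997, 996 and 939 CPM. Every 786-O library lay above every HK2 library, and every 786-M1A library above every 786-O library. SLC7A5 was 4.89-fold higher in 786-O than in HK2 (log2 fold change 2.29 ± 0.0436 SE, edgeR adjusted p = 1.53e-21). The difference from HK2 was 5.99-fold in 786-M1A (log2 2.58 ± 0.0440, edgeR adjusted p = 1.93e-22), and 786-M1A exceeded 786-O by 1.22-fold (log2 0.29 ± 0.0410, edgeR adjusted p = 3.32e-06). SLC7A5 has 2 named pseudogenes, SLC7A5P1 and SLC7A5P2, and how reads shared with them were counted is not stated.

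SLC3A2 (4F2hc, CD98), the heavy chain that carries SLC7A5 and other light chains to the membrane, rose in the same lines by less. Its level was 83.3, 88.3 and 83.0 CPM for HK2, 191, 177 and 182 CPM for 786-O, and 221, 212 and 212 CPM for 786-M1A. The 3 lines did not overlap and followed the order of SLC7A5. The log2 fold change was 1.11 ± 0.0404 in 786-O against HK2 (edgeR adjusted p = 1.25e-16), 1.34 ± 0.0405 in 786-M1A against HK2 (edgeR adjusted p = 3.82e-18) and 0.23 ± 0.0390 between the cancer lines (edgeR adjusted p = 3.53e-05). Per length, the ratio of SLC7A5 to SLC3A2 was 0.797 ± 0.0619 for HK2, 1.80 ± 0.0377 for 786-O and 1.88 ± 0.0556 for 786-M1A (SD, n = 3). By this length the light chain was below its heavy chain in every HK2 library and above it in every cancer library. In CPM not divided by length, SLC7A5 was above SLC3A2 in every line, with means of 163 and 84.8 CPM for HK2. Which of them was higher in HK2 thus depends on the transcript length used.

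SLC7A6, a light chain that exports arginine in exchange for neutral amino acids and sodium, went the other way. The HK2 libraries held 144, 126 and 137 CPM, the 786-O libraries 64.2, 64.2 and 62.5 CPM and the 786-M1A libraries 67.7, 73.2 and 68.6 CPM. HK2 lay above both cancer lines, and 786-M1A slightly above 786-O. Against HK2 the log2 fold change was -1.09 ± 0.0470 in 786-O (edgeR adjusted p = 2.41e-15) and -0.96 ± 0.0470 in 786-M1A (edgeR adjusted p = 2.16e-14). The gap of 0.14 ± 0.0480 between the cancer lines (edgeR adjusted p = 0.0213) lost its call without 786-O replicate 3 (0.0761) or without 786-M1A replicate 2 (0.123). SLC7A6 shares 44.4% of its exon bases with SLC7A6OS on the opposite strand, a gene of 8.60, 8.04 and 8.30 mean CPM in HK2, 786-O and 786-M1A that was called in none of the comparisons. Whether the counting used strand is not stated.

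SLC7A7, the sister light chain of SLC7A6 that is mutated in lysinuric protein intolerance, was low and higher in the cancer lines. It had 3.96, 4.40 and 4.24 CPM for HK2, 14.8, 13.7 and 15.0 CPM for 786-O and 12.3, 13.4 and 13.5 CPM for 786-M1A. HK2 lay below both cancer lines, and the 3 libraries of 786-M1A lay just below the 3 of 786-O. Relative to HK2 the log2 fold change was 1.78 ± 0.0779 in 786-O (edgeR adjusted p = 3.31e-15) and 1.63 ± 0.0797 in 786-M1A (edgeR adjusted p = 2.12e-14). Between the cancer lines it was -0.15 ± 0.0658 (edgeR adjusted p = 0.0569). With the replicate number as a block in a fit of only these 2 lines the adjusted p was 0.0378.

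SLC7A8 (LAT2), the other leucine light chain, and SLC7A9, the cystine light chain of the renal brush border, were near the floor. SLC7A8 had 7, 5 and 20 counts in the HK2 libraries, 18, 7 and 12 in those of 786-O and 11, 11 and 10 in those of 786-M1A, which is 0.261 ± 0.157, 0.292 ± 0.110 and 0.285 ± 0.0200 CPM with overlapping lines. SLC7A9 had at most 3 counts in any library. Its heavy chain SLC3A1 (rBAT), which with SLC7A9 is mutated in cystinuria, had 29 to 60 counts for HK2, 19 to 29 for 786-O and 11 to 15 for 786-M1A, and 29.4% of its exon bases overlap PREPL on the opposite strand, which had 46.5 to 55.0 mean CPM per line. Of the summed per-length level of the 5 light chains, SLC7A5 made up 60.1% ± 1.45 for HK2, 91.0% ± 0.287 for 786-O and 92.4% ± 0.380 for 786-M1A. SLC7A6 made up 36.5% ± 1.64, 5.29% ± 0.188 and 4.82% ± 0.192.

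**Figure D3:**
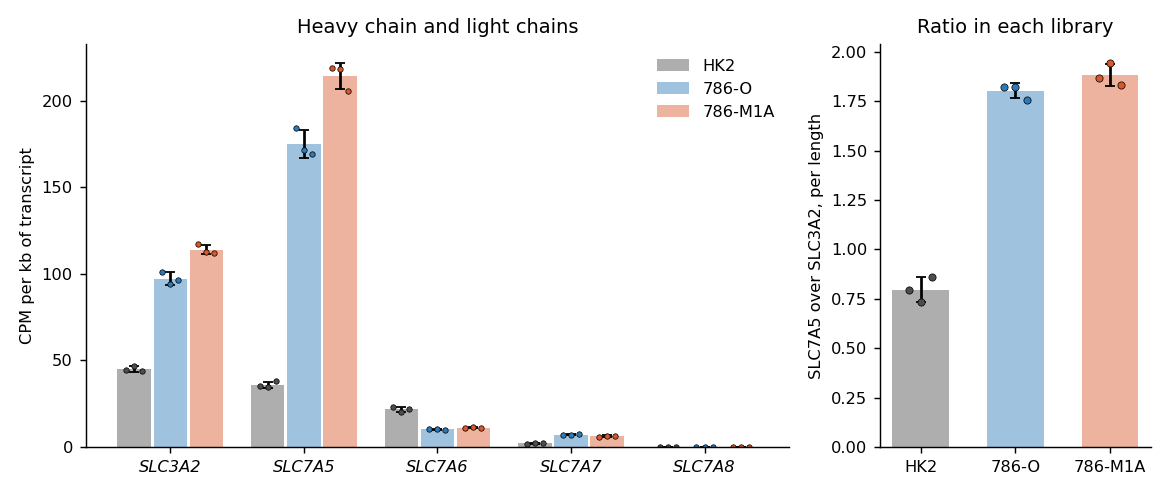
Left, CPM per kb of transcript of the heavy chain SLC3A2 and 4 light chains in the 3 lines, and right, the ratio of SLC7A5 to SLC3A2 per length. Bars are means, error bars SD and points the 3 libraries. Divided by MANE Select length, SLC7A5 stands below SLC3A2 in HK2 (ratio 0.797) and above it in 786-O (1.80) and 786-M1A (1.88). In CPM not divided by length it was above SLC3A2 in HK2 too. SLC7A6 is highest in HK2.

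SLC1A5 (ASCT2), which takes up glutamine in exchange for other neutral amino acids, was abundant in all lines and differed little. Its level was 191, 200.3 and 202 CPM for HK2, 266, 245 and 247 CPM for 786-O and 232, 217 and 215 CPM for 786-M1A. The lines did not overlap, with HK2 lowest and 786-O highest. Its log2 fold change was 0.35 ± 0.0413 in 786-O against HK2 (edgeR adjusted p = 6.78e-08), 0.16 ± 0.0414 in 786-M1A against HK2 (edgeR adjusted p = 9.85e-04) and -0.19 ± 0.0412 between the cancer lines (edgeR adjusted p = 5.23e-04).

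SLC1A4 (ASCT1), which exchanges serine, alanine and cysteine, differed more. It had 39.8, 36.1 and 38.9 CPM for HK2, 89.8, 89.2 and 93.1 CPM for 786-O and 101, 101 and 105 CPM for 786-M1A. The 3 lines stood apart in this order. SLC1A4 was 2.37-fold higher in 786-O (log2 1.25 ± 0.0443, edgeR adjusted p = 8.17e-17) and 2.68-fold higher in 786-M1A (log2 1.42 ± 0.0443, edgeR adjusted p = 6.42e-18) than in HK2, and 1.13-fold higher in 786-M1A than in 786-O (log2 0.18 ± 0.0417, edgeR adjusted p = 0.00104).

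Among the carriers of glutamate and aspartate, SLC1A1 rose and SLC1A3 fell in the cancer lines. SLC1A1 (EAAT3), the high-affinity glutamate and cysteine carrier of the proximal tubule, lies on chromosome 9 (hg38, 4490468 to 4587469, plus strand). It had 3.00, 3.18 and 3.05 CPM for HK2, 24.6, 25.4 and 24.9 CPM for 786-O and 24.9, 23.5 and 25.97 CPM for 786-M1A. HK2 lay far below, and the cancer lines overlapped. The gene was 8.10-fold higher in 786-O (log2 3.02 ± 0.0718, edgeR adjusted p = 6.36e-20) and 8.04-fold higher in 786-M1A (log2 3.01 ± 0.0724, edgeR adjusted p = 6.91e-20) than in HK2, with a difference of -0.01 ± 0.0528 between the cancer lines (edgeR adjusted p = 0.899). This was the largest rise against HK2 of any tested member in 786-O.

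SLC1A3 (EAAT1), a glutamate carrier of glia that also imports aspartate, fell stepwise. Its level was 8.70, 6.68 and 7.48 CPM for HK2, 4.71, 4.01 and 4.58 CPM for 786-O and 2.02, 2.48 and 2.01 CPM for 786-M1A. The 3 lines did not overlap. The log2 fold change was -0.76 ± 0.103 in 786-O against HK2 (edgeR adjusted p = 6.12e-07), -1.03 ± 0.130 in 786-M1A against 786-O (edgeR adjusted p = 7.18e-07) and -1.80 ± 0.121 in 786-M1A against HK2 (edgeR adjusted p = 5.80e-12). SLC1A2 (EAAT2), the main glutamate carrier of astrocytes, had 0 to 2 counts for HK2, 0 to 4 for 786-O and 0 for 786-M1A.

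SLC38A5 (SNAT5) and SLC38A3 are system N carriers, which move glutamine, histidine and asparagine with sodium against protons. SLC38A5, on the X chromosome, decreased from HK2 to 786-O and again to 786-M1A. Its level was 42.1, 39.6 and 39.5 CPM for HK2, 4.29, 4.01 and 3.83 CPM for 786-O and 0.415, 0.287 and 0.185 CPM for 786-M1A, the last from 15, 11 and 7 counts. The libraries of the 3 lines were far apart. The gene passed the filter through HK2 and 786-O. It thus had to be lower in 786-M1A than in HK2 or 786-O. SLC38A5 was 9.96-fold lower in 786-O than in HK2 (log2 -3.32 ± 0.0729, edgeR adjusted p = 1.61e-20), 13.6-fold lower in 786-M1A than in 786-O (log2 -3.77 ± 0.178, edgeR adjusted p = 1.15e-13) and 136-fold lower in 786-M1A than in HK2 (log2 -7.09 ± 0.118, edgeR adjusted p = 1.10e-22). It ranked 8 of the 32 members per length for HK2, 18 for 786-O and 22 for 786-M1A.

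SLC38A3 (SNAT3), a glutamine carrier of the proximal tubule known for its part in ammonia production, was under the filter. It had 64, 79 and 92 counts in the HK2 libraries, 22, 15 and 20 in 786-O and 2, 2 and 0 in 786-M1A. The counts of the 3 lines did not overlap, and those of 786-M1A were below the floor of 3. SLC38A4, a SNAT carrier known mainly from liver, had 7 to 14 counts in HK2 and 0 to 3 in each cancer line.

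SLC38A2 and SLC38A1, the system A carriers, import glutamine and other small neutral amino acids with sodium, and SLC38A2 is known to be induced when amino acids run short. SLC38A2 (SNAT2) had 385, 356 and 377 CPM for HK2, 107, 116 and 114 CPM for 786-O and 122, 127 and 136 CPM for 786-M1A. HK2 lay above both cancer lines, and every 786-M1A library above every 786-O library. Its log2 fold change was -1.73 ± 0.0452 in 786-O against HK2 (edgeR adjusted p = 3.39e-19), -1.54 ± 0.0449 in 786-M1A against HK2 (edgeR adjusted p = 2.15e-18) and 0.19 ± 0.0452 between the cancer lines (edgeR adjusted p = 0.00115).

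SLC38A1 (SNAT1) differed less, at 368 ± 15.9 CPM for HK2, 303 ± 9.77 CPM for 786-O and 356 ± 25.2 CPM for 786-M1A. It was lower in 786-O than in HK2 (log2 -0.28 ± 0.0466, edgeR adjusted p = 1.55e-05) and higher in 786-M1A than in 786-O (log2 0.23 ± 0.0467, edgeR adjusted p = 2.86e-04). The libraries of 786-M1A and HK2 overlapped (log2 -0.05 ± 0.0466, edgeR adjusted p = 0.346), and upper-quartile scaling called this difference lower (log2 -0.10, adjusted p = 0.0495). Per length, SLC38A1 was 0.585 ± 0.0132 of SLC38A2 in HK2 and 1.60 ± 0.0197 and 1.65 ± 0.0762 times SLC38A2 in 786-O and 786-M1A.

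Of the SLC38 members of lysosomes and other internal membranes, SLC38A9, a lysosomal carrier through which arginine is sensed by mTORC1, fell most. It had 20.1, 18.5 and 19.2 CPM for HK2, 7.29, 7.25 and 8.25 CPM for 786-O and 7.30, 7.22 and 8.01 CPM for 786-M1A. HK2 lay above both cancer lines, which overlapped. Relative to HK2 the log2 fold change was -1.34 ± 0.0703 in 786-O (edgeR adjusted p = 8.82e-14) and -1.35 ± 0.0716 in 786-M1A (edgeR adjusted p = 8.51e-14), and between the cancer lines it was -0.02 ± 0.0798 (edgeR adjusted p = 0.882).

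SLC38A6 was 13.5 ± 1.07 CPM for HK2, 7.82 ± 0.433 CPM for 786-O and 7.63 ± 0.225 CPM for 786-M1A, lower in both cancer lines than in HK2 (log2 -0.78 and -0.82, edgeR adjusted p = 2.69e-09 and 1.59e-09). TRMT5, which overlaps 1.03% of its exon bases on the opposite strand, was lower there too (log2 -1.23 and -1.21). SLC38A10 was 87.8 ± 3.62, 124 ± 3.76 and 122 ± 5.82 CPM, higher in both cancer lines than in HK2 (log2 0.49 and 0.47, edgeR adjusted p = 7.98e-10 and 1.59e-09). SLC38A7, which exports glutamine and asparagine from lysosomes, was 25.1 ± 1.44, 27.4 ± 0.273 and 24.5 ± 0.831 CPM. Its rise in 786-O (log2 0.13, edgeR adjusted p = 0.0245) lost its call without HK2 replicate 2 (0.145), without 786-O replicate 1 (0.0519) or without 786-O replicate 2 (0.0605), and under DESeq2 and upper-quartile scaling. Its level was lower in 786-M1A than in 786-O (log2 -0.16, edgeR adjusted p = 0.0121).

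**Figure D4:**
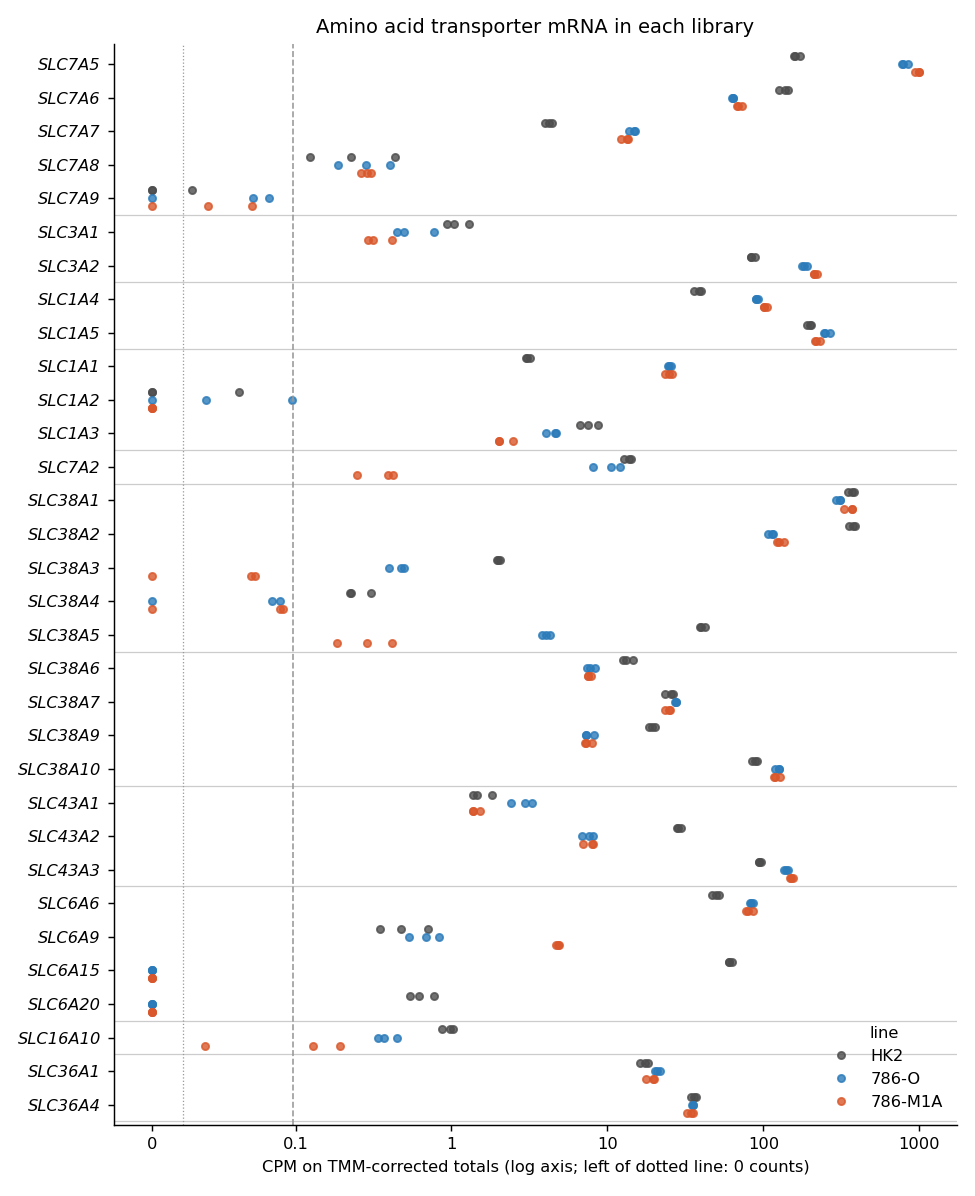
Level of the 32 members in each of the 9 libraries, in CPM on TMM-corrected totals (log x axis), grouped by role and coloured by line. Points left of the dotted line are libraries with 0 counts, and the dashed line is 3 counts in the shallowest library. SLC7A5 reaches 997 CPM in 786-M1A, and SLC6A15 has 0 counts in all 6 libraries of the cancer lines.

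SLC7A2 (CAT-2), which carries arginine, lysine and ornithine, was near the floor in 786-M1A only. It lies on chromosome 8 (hg38, 17497088 to 17570573, plus strand). It had 14.1, 12.9 and 13.8 CPM for HK2, 8.10, 10.5 and 12.1 CPM for 786-O and 0.249, 0.391 and 0.423 CPM for 786-M1A, the last from 9, 15 and 16 counts. The 786-O libraries spread widely but lay below those of HK2, and both were far above 786-M1A. The gene passed the filter through HK2 and 786-O. It thus had to be lower in 786-M1A than in HK2 or 786-O. SLC7A2 was 28.4-fold lower in 786-M1A than in 786-O (log2 -4.83 ± 0.213, edgeR adjusted p = 1.84e-11) and 37.8-fold lower than in HK2 (log2 -5.24 ± 0.204, edgeR adjusted p = 4.83e-13). The smaller difference between 786-O and HK2 (log2 -0.41 ± 0.108, edgeR adjusted p = 0.00226) lost its call with limma on log2 counts (adjusted p = 0.0709). SLC7A1, the arginine carrier that most cells use and no member of the list, was 152 ± 13.2, 231 ± 6.76 and 227 ± 12.7 CPM in HK2, 786-O and 786-M1A, with a log2 difference of -0.02 ± 0.0547 between the cancer lines (edgeR adjusted p = 0.773).

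SLC6A9 (GlyT1), the sodium and chloride dependent glycine carrier, was the only member called at least 2-fold higher in 786-M1A than in 786-O. Its level was 0.709, 0.472 and 0.346 CPM for HK2, 0.835, 0.531 and 0.685 CPM for 786-O and 4.87, 4.67 and 4.84 CPM for 786-M1A. HK2 and 786-O overlapped, and 786-M1A lay above both. The gene passed the filter through 786-M1A alone and so had to be higher there. SLC6A9 was 6.90-fold higher in 786-M1A than in 786-O (log2 2.79 ± 0.159, edgeR adjusted p = 2.62e-12) and 9.80-fold higher than in HK2 (log2 3.29 ± 0.174, edgeR adjusted p = 8.80e-14). Between 786-O and HK2 the difference was 0.51 ± 0.259 (edgeR adjusted p = 0.0752), called without HK2 replicate 1 (0.0157) or without 786-O replicate 2 (0.0342). CCDC24, which overlaps 7.87% of its exon bases on the opposite strand, differed by 0.10 between the cancer lines (edgeR adjusted p = 0.364). Against HK2, CCDC24 was higher in both (log2 0.94 in 786-O, edgeR adjusted p = 3.21e-08, and 1.045 in 786-M1A, edgeR adjusted p = 6.09e-09), the direction of SLC6A9, and its part in the difference of SLC6A9 from HK2 was not tested.

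SLC6A15 (B0AT2), which carries branched-chain amino acids and proline with sodium and is best known from brain, had counts in HK2 alone. The HK2 libraries had 1865, 2421 and 2912 counts, or 60.1, 60.2 and 63.0 CPM, and all 6 libraries of the cancer lines had 0. With the floor of 3 counts in each library, SLC6A15 was at least 754-fold higher in HK2 than in 786-O (edgeR adjusted p = 5.35e-21) and at least 724-fold higher than in 786-M1A (edgeR adjusted p = 6.73e-21). SLC6A15 passed the filter through HK2 alone and so had to be lower in the cancer lines. It lies on chromosome 12 (hg38, 84859491 to 84913629, minus strand) and was rank 10 of the 32 members in HK2 per length. SLC6A20, a proline and imino acid carrier of the kidney, had 24, 25 and 25 counts in HK2 and 0 in each of the other 6 libraries, a difference of at least 6.78-fold from 786-O and at least 6.51-fold from 786-M1A.

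SLC6A6, the taurine carrier, was 49.5 ± 2.48 CPM for HK2, 83.6 ± 2.24 CPM for 786-O and 80.7 ± 4.11 CPM for 786-M1A. It was higher in both cancer lines than in HK2 (log2 0.76 and 0.71, edgeR adjusted p = 1.74e-12 and 5.62e-12), and the cancer lines overlapped (edgeR adjusted p = 0.368). SLC16A10 (TAT1), which lets aromatic amino acids cross the basolateral membrane, had 27 to 45 counts for HK2, 14 to 19 for 786-O and 1 to 7 for 786-M1A.

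SLC43A2 (LAT4), a facilitator of leucine, isoleucine, valine, phenylalanine and methionine, was lower in both cancer lines. Its level was 29.5, 28.5 and 27.8 CPM for HK2, 8.08, 7.65 and 6.83 CPM for 786-O and 8.14, 8.01 and 6.93 CPM for 786-M1A. HK2 lay above the cancer lines, which overlapped. Relative to HK2 the log2 fold change was -1.92 ± 0.0700 in 786-O (edgeR adjusted p = 1.22e-16) and -1.89 ± 0.0709 in 786-M1A (edgeR adjusted p = 1.77e-16), and between the cancer lines it was 0.03 ± 0.0825 (edgeR adjusted p = 0.773).

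SLC43A1 (LAT3), a facilitator of the same kind, was low and highest in 786-O. It had 1.45, 1.37 and 1.82 CPM for HK2, 2.41, 2.95 and 3.28 CPM for 786-O and 1.38, 1.38 and 1.53 CPM for 786-M1A. The 786-O libraries lay above all others, and HK2 and 786-M1A overlapped. The log2 fold change was 0.88 ± 0.147 in 786-O against HK2 (edgeR adjusted p = 1.13e-05), -1.002 ± 0.151 in 786-M1A against 786-O (edgeR adjusted p = 8.21e-06) and -0.12 ± 0.173 in 786-M1A against HK2 (edgeR adjusted p = 0.507). SLC43A3, which carries purine nucleobases despite its family, was 94.8 ± 2.16 CPM for HK2, 140 ± 3.63 CPM for 786-O and 151 ± 4.20 CPM for 786-M1A. It was higher in both cancer lines than in HK2 (log2 0.56 and 0.67, edgeR adjusted p = 9.93e-12 and 3.83e-13). Its gap between the cancer lines (log2 0.11, edgeR adjusted p = 0.018) lost its call without 786-O replicate 1 (0.0605) or without 786-M1A replicate 2 (0.0979).

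The carriers of branched-chain amino acids did not all move in the same direction. SLC7A5 was higher, SLC43A2 lower and SLC6A15 at 0 in both cancer lines against HK2. SLC43A1 was higher in 786-O only, and SLC7A8 stayed near the floor.

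The proton-coupled carriers differed little. SLC36A1, which exports small neutral amino acids from lysosomes, was 17.3 ± 1.10 CPM for HK2, 21.0 ± 0.805 CPM for 786-O and 19.1 ± 1.32 CPM for 786-M1A. It was higher in 786-O than in HK2 (log2 0.28 ± 0.0630, edgeR adjusted p = 3.80e-04). Between the cancer lines the difference was -0.13 ± 0.0625 (edgeR adjusted p = 0.0741, and 0.0464 with the replicate block in a fit of these 2 lines). Between 786-M1A and HK2 it was 0.14 ± 0.0643 (edgeR adjusted p = 0.0445), with overlapping libraries, and this call was lost under 10 of the 18 alternatives, among them those without HK2 replicate 1 (0.0682) or 2 (0.213), 786-O replicate 2 (0.0548) and 786-M1A replicate 2 (0.17) or 3 (0.134). SLC36A4, a proline and tryptophan carrier, was 35.9 ± 1.48, 35.4 ± 0.249 and 33.8 ± 1.53 CPM and was the only tested member called in no comparison.

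**Figure D5:**
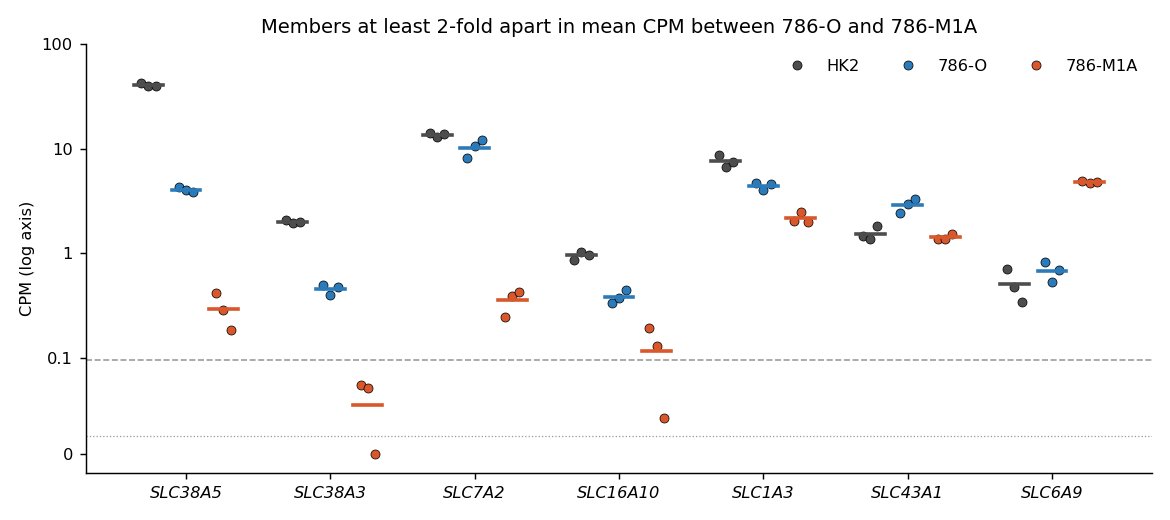
CPM (log y axis) in each library of the 7 members whose mean CPM differed at least 2-fold between 786-O and 786-M1A and that had counts in both. Points are libraries, bars the mean, the dashed line 3 counts in the shallowest library, and a point under the dotted line a library with 0 counts. SLC38A5, SLC38A3, SLC16A10 and SLC1A3 step down from HK2 through 786-O to 786-M1A, SLC7A2 is near 10 CPM in 786-O and under 1 CPM in 786-M1A, and SLC6A9 is highest in 786-M1A. SLC38A3 and SLC16A10 were under the filter and not tested.

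Of 25 further amino acid carriers outside the list, 10 had 0 counts in every library and 5 were tested. In both cancer lines 2 of the 5 were higher than in HK2 (SLC7A1 and SLC7A11) and 3 were lower (SLC6A17, SLC66A1 and CTNS), where 84.2% and 84.9% of all genes were called. SLC6A17 averaged 259 counts for HK2 and under 1 count for each cancer line, and it passed the filter through HK2 alone and so had to be lower. Between the cancer lines none was higher and 2 were lower in 786-M1A, SLC7A11 and SLC66A1, where 27.9% of all genes were called higher and 28.0% lower. SLC7A11, the cystine and glutamate exchanger that also pairs with SLC3A2, was 20.4 ± 0.741 CPM for HK2, 35.9 ± 1.10 CPM for 786-O and 24.4 ± 1.25 CPM for 786-M1A. CLTRN, which escorts carriers of the SLC6 family to the membrane in the kidney, had 36 to 46 counts for HK2, 7 to 12 for 786-O and 0 to 1 for 786-M1A.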

How the data were processed

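RNA was sequenced from HK2, 786-O and 786-M1A cells, 3 libraries each, prepared by the study with a stranded mRNA kit. The authors deposited raw counts per gene, made with featureCounts on GRCh38 per the labels, without normalization or a filter on low counts. Annotation version and use of strand are not given in the sources used here.

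Of 28395 gene identifiers, 27745 matched a RefSeq symbol. Genes averaging 50 counts or more (12695, the study's filter) were fitted with edgeR 4.0.16 in R 4.3.3 (TMM, robust quasi-likelihood, 1 coefficient per line), with Benjamini-Hochberg adjustment over all of them. Standard errors came from the log2 fold change and the F statistic. Levels are CPM on TMM-corrected totals, divided by MANE Select transcript length (GENCODE 44) where compared between genes. Floors cover counting error only. The study itself calibrated log2 counts and used limma. Counts need a count test, so limma 3.58.1 and DESeq2 1.42.0 were alternatives here, beside other scalings, filters, a replicate block and leaving out each library.

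The members and lists were chosen with earlier results of these data known. All 32 members are named. Values in every library are given for members called with at least a 2-fold difference in any comparison and for the carriers of branched-chain amino acids, their heavy chain and SLC1A5. Deviations of same-numbered libraries correlated between 786-M1A and 786-O (0.165 to 0.322), so these were also fitted with the replicate number as a block. HK2 did not pair with either (-0.256 to 0.0597). Libraries of different number reached 0.0981 between the cancer lines and 0.263 between 786-M1A and HK2, so values of this size also arose without a shared number. The ccRCC marker NDUFA4L2 was on the list but had no row matched to its symbol, so it was not analysed here. The lists hold 2 further genes that are not reported here, and markers and further carriers are given mainly as counts and sums.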

Additional observations from a re-analysis of the deposited data

Results flagged for a closer look

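The distance from HK2 differed between the cancer lines, by edgeR's contrast of 786-M1A against 786-O and by at least 2-fold, for 5 of the 24 tested members. SLC7A2 (log2 difference -4.83), SLC38A5 (-3.77), SLC1A3 (-1.03) and SLC43A1 (-1.002) were lower in 786-M1A, and SLC6A9 (2.79) was higher. Over all genes tested, 6.59% differed in this way. SLC7A2, SLC38A5 and SLC6A9 passed the filter through the lines in which they were high, and SLC1A3 and SLC43A1 lay at the 2-fold line. The count is thus no test of the list.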

How the results depend on the processing

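Of 1293 values of members under 18 alternatives per comparison, or 19 between the cancer lines, 1263 kept their side of the threshold. Of the rest, 20 lost the call and 10 gained it, and no call was reversed. Among the 1263, uncalled differences near 0 could change sign, as for SLC1A1 between the cancer lines (log2 -0.04 to 0.03). The alternatives were DESeq2, limma voom, limma on log2 counts, other scalings and filters, fits of only the lines compared, the replicate block and leaving out each library. The changes fell on 10 of 71 member comparisons, all of them with log2 fold changes of at most 0.51 in size. The causes were not tested. The count of members with a 2-fold difference between 786-M1A and 786-O was 3 in place of 5 when at least 10 counts were required in every library, which removes SLC38A5 and SLC7A2 from the test, and 3 to 5 when a library was left out. Under the replicate block, 22, 14 and 19 members were called in 786-O against HK2, 786-M1A against 786-O and 786-M1A against HK2, against 22, 14 and 20 without it, the loss being SLC36A1 (adjusted p = 0.0554). With the block in a fit of only the cancer lines, an alternative chosen after seeing the data, 16 were called, SLC7A7 and SLC36A1 being added, while the share called of all genes also went from 56.0% to 63.5%, and the block changed no other call. Adjusted p over all alternatives ran from 0.0378 to 0.211 for SLC7A7 and from 0.0464 to 0.314 for SLC36A1 between the cancer lines, and from 0.00711 to 0.213 for SLC36A1 in 786-M1A against HK2. They ran from 0.0157 to 0.378 for SLC6A9, from 5.50e-07 to 0.0709 for SLC7A2 and from 0.00425 to 0.145 for SLC38A7 in 786-O against HK2. They ran from 0.00197 to 0.123 for SLC7A6 and from 0.00177 to 0.0979 for SLC43A3 between the cancer lines, and from 0.0495 to 0.817 for SLC38A1 and from 0.016 to 0.394 for SLC36A4 in 786-M1A against HK2. The 8 members under the filter had means under 50 counts. Without the filter 27, 17 and 25 of the 32 members were called in 786-O against HK2, 786-M1A against 786-O and 786-M1A against HK2, beside 63.8%, 38.0% and 64.7% of all genes. The calls added against HK2 were all lower in the cancer lines, among them SLC38A3 and SLC6A20, and SLC7A8, SLC7A9 and SLC1A2 were called in no comparison.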
